A study of Arabidopsis thaliana with 18 samples.

Results

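The tfl1 mutant arm of the experiment compared shoot apices given a far-red-enriched photoperiod (FRP) for 24 h with shoot apices kept in short days. Its members were the 3 tfl1 libraries whose titles gave 24 h of FRP and the 3 whose titles gave 0 h, 6 of the 18 RNA-seq libraries in the series. All 6 came from Arabidopsis thaliana of the Col-0 ecotype that carried the tfl1-1 allele, which the study describes as a severe mutant, and all had grown for 42 days in short days of 8 h light and 16 h dark. The short-day libraries were labelled as untreated. The study's methods state that the FRP began at the end of the short day and that the inflorescence shoots of each replicate were collected after leaves and roots had been removed. During the same 24 h the untreated plants had 16 h dark and 8 h light, at a higher red to far-red ratio and a higher light intensity. The groups thus differed in the dark period and in light intensity as well as in far-red light. These parts of the treatment cannot be told apart here. Both groups carried the mutant allele, so the comparison between them shows the response to FRP in the absence of normal TFL1 and nothing of the allele itself. The wild type and ft-10 arms, with 3 libraries for each light condition, are used only to ask where the FRP response of tfl1 differed from theirs.

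TFL1 (TERMINAL FLOWER 1) belongs to the same phosphatidylethanolamine-binding protein (PEBP) family as FT (FLOWERING LOCUS T), the mobile flowering signal that leaves make in long days. At the shoot apex both proteins associate with the bZIP factor FD: FT promotes and TFL1 represses genes of flower formation. TSF is the closest relative of FT, and ATC and BFT are relatives of TFL1. Far-red-rich light and long days act through phytochromes and the circadian clock, whose morning genes (CCA1, LHY) and evening genes (TOC1, the evening complex) repress each other.

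The 6 libraries held between 31016523 and 35851716 reads assigned to genes. Levels are given in CPM (reads per gene scaled to a common library size) with the replicates in the order 1, 2 and 3. Genes with at least 10 reads in at least 2 of the 6 libraries were tested, 20974 genes in all, with edgeR's quasi-likelihood test with p-values adjusted by the method of Benjamini and Hochberg. "Called" means an adjusted p no higher than 0.005. The labels do not say whether replicates were separate batches of plants, so p-values measure the spread between these samples. No 2 replicates agreed within sampling noise. Shoot meristem genes were present (STM, a homeobox gene that maintains the meristem, at 142, 125 and 131 CPM in short day), although CLV3, which marks the stem cells, had only 3, 4 and 2 reads in short day and 5, 7 and 3 after FRP, and WUS had at most 7 reads in any library. Petal and stamen identity was nearly absent, with at most 6 reads of AP3 in a library.

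TFL1 itself (AT5G03840, chromosome 5, 1024500 to 1025872) was read in every library, at 6.3, 5.73 and 6.33 CPM in short day and 44.5, 45.5 and 44.6 CPM after FRP. The transcript was higher after FRP (log2 fold change 2.87 ± 0.07 SE, adjusted p = 2.6e-06). Its presence in the mutant means that the transcript level does not check the genotype label. FT (AT1G65480) was not testable in these leafless shoots, with at most 3 reads in any tfl1 library.

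Of the 20974 genes, 3493 were called higher after FRP (16.7%) and 4112 lower (19.6%), together 36.3%. The shares of 16.7% and 19.6% are the background for the counts of list members called in tfl1 below. Rises were thus 45.9% of the calls, but 63.0% (5108 rises and 3003 falls) when libraries were scaled by their totals alone, which moved the median log2 change of all genes by 0.11. Among the 7605 calls 1359 genes rose and 1529 fell at least 2-fold, while 49 rose and 131 fell at least 8-fold. The CPM of the groups did not overlap in any of the 7605 called genes. The calls came from the same values, so this is no separate evidence. The share without overlap among all genes tested was not counted. Leaving out a single library gave between 917 and 4438 higher and between 2076 and 4324 lower genes. The 4 fits that lost most calls were those without short-day replicate 1 (1269 higher, 2397 lower), short-day replicate 2 (1827 and 2688), short-day replicate 3 (917 and 2083) and FRP replicate 3 (1082 and 2076). With replicates 1 and 3 of each condition alone, 3061 of the 3493 rises and 3590 of the 4112 falls were called again in the same direction.

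Transcript length moved with the treatment. In the shortest of 5 equal groups of tested genes (42 to 1092 bases) 208 were called higher and 1006 lower, and in the longest (2496 to 16593 bases) 1491 were called higher and 187 lower. Each library's log2 CPM, relative to the mean of the 6, had a slope on log2 transcript length of -0.27, -0.11 and -0.18 in short day and of 0.05, 0.35 and 0.16 after FRP. The lowest slope after FRP was above the highest in short day. A second fit removed each library's smooth trend on length and GC content. It called 3721 genes higher and 4070 lower, of which 2499 rises and 3157 falls were also called as counted, and none was called in opposite directions. The part of length in any result was not tested beyond this fit, whose counts are given below as "with the trends removed" beside the lists that moved.

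**Figure D1:**
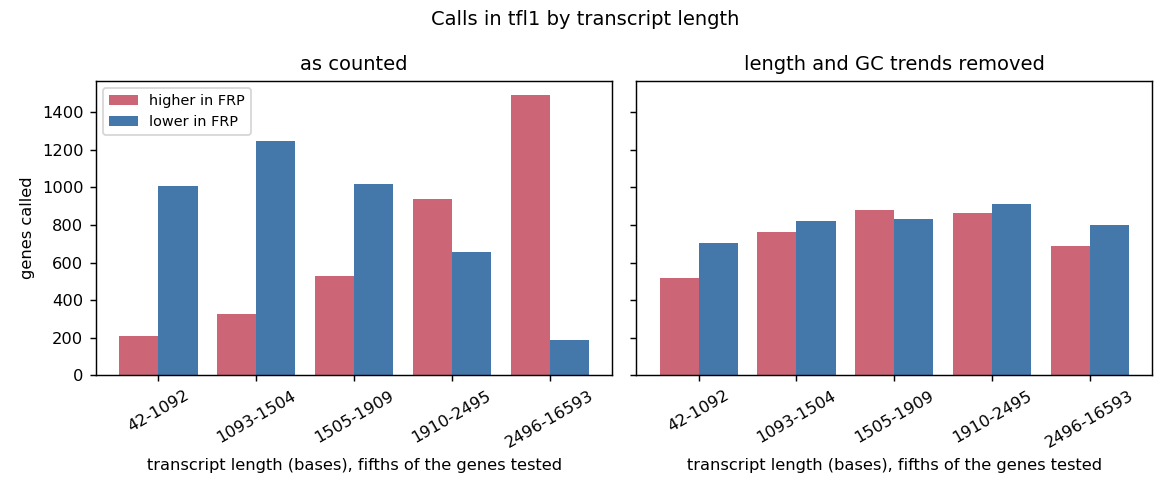
Number of genes called higher (red) or lower (blue) after FRP in tfl1, in 5 equal groups by transcript length in bases, as counted (left) and after length and GC trends were removed (right). As counted the longest group had 1491 rises and 187 falls; with the trends removed it had 686 and 798.

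The 10 largest rises with a gene symbol belonged to the morning clock, to the PEBP family and to a few regulators and transporters. LHY (AT1G01060), a MYB factor of the morning clock, was at 0.606, 0.867 and 0.737 CPM in short day and 79, 75.4 and 78.1 CPM after FRP (log2 fold change 6.72 ± 0.12 SE, adjusted p = 1.2e-06). Its partner CCA1 (AT2G46830) was at 0.666, 0.5 and 0.637 CPM in short day and 59.6, 68.8 and 61.5 CPM after FRP (log2 fold change 6.71 ± 0.12 SE, adjusted p = 1.2e-06). LNK2, a clock coactivator, stood at 8.36, 8.3 and 8.81 CPM in short day and 104, 124 and 112 CPM after FRP (log2 fold change 3.74 ± 0.09 SE, adjusted p = 2.8e-06). RVE8, a MYB factor that activates evening genes, was at 2.63, 2.93 and 3.25 CPM in short day and 39.2, 35.3 and 37.5 CPM after FRP (log2 fold change 3.67 ± 0.1 SE, adjusted p = 3.6e-06). In all 4 genes every FRP library was more than 10-fold above every short-day library.

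FAF2 and FAF1 belong to a small family that influences meristem size. FAF2 was at 0.787, 1.3 and 1.11 CPM in short day and 29.6, 32.3 and 30.9 CPM after FRP (log2 fold change 4.86 ± 0.15 SE, adjusted p = 5.1e-06). FAF1 was at 0.242, 0.267 and 0.369 CPM in short day and 3.61, 2.87 and 3.02 CPM after FRP (log2 fold change 3.43 ± 0.21 SE, adjusted p = 4.5e-05). ATC, the TFL1 relative, was at 0.303, 0.533 and 0.134 CPM in short day and 5.6, 5.11 and 5.28 CPM after FRP (log2 fold change 4.03 ± 0.3 SE, adjusted p = 9.8e-05). The basic helix-loop-helix gene BHLH92 had 4, 4 and 7 reads in short day and 250, 154 and 225 after FRP (log2 fold change 5.21 ± 0.35 SE, adjusted p = 6.6e-05). SWEET14, a sugar exporter, had 3, 4 and 1 reads in short day and 122, 89 and 120 after FRP (log2 fold change 5.17 ± 0.36 SE, adjusted p = 7.1e-05), so its fold change rests on 8 short-day reads in all. ELIP2, an early light-induced chloroplast protein, was at 1.27, 1.23 and 1.17 CPM in short day and 11.1, 16 and 12.2 CPM after FRP (log2 fold change 3.42 ± 0.18 SE, adjusted p = 2.5e-05). Absence of overlap between the groups was a condition of choice for the largest rises and falls.

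The 10 largest falls were mostly genes of chloroplasts and of cold response. PORA, the light-repressed protochlorophyllide reductase, dropped to a handful of reads, with 343, 309 and 266 reads in short day and 2, 5 and 3 after FRP (log2 fold change -6.61 ± 0.21 SE, adjusted p = 5.3e-06). CA1, a chloroplast carbonic anhydrase, was at 19, 18.8 and 19.3 CPM in short day and 0.352, 0.166 and 0.214 CPM after FRP (log2 fold change -6.27 ± 0.18 SE, adjusted p = 4.4e-06). LHCB1.4, a light-harvesting antenna protein of photosystem II, was at 250.4, 234 and 246 CPM in short day and 5.01, 2.51 and 4.31 CPM after FRP (log2 fold change -5.95 ± 0.25 SE, adjusted p = 1.3e-05), with LHCB1.2 next among its antenna relatives at -2.74 ± 0.15. OEP6, an outer envelope protein of plastids, was at 196, 183 and 180.3 CPM in short day and 8.09, 4.25 and 6.75 CPM after FRP (log2 fold change -4.88 ± 0.23 SE, adjusted p = 1.9e-05). RbcX1, an assembly chaperone of Rubisco, was at 31.8, 29 and 32.2 CPM in short day and 1.17, 1.05 and 1.07 CPM after FRP (log2 fold change -4.82 ± 0.09 SE, adjusted p = 1.2e-06). MSRB6, a methionine sulfoxide reductase, had 185, 195 and 164 reads in short day and 5, 7 and 2 after FRP (log2 fold change -5.39 ± 0.25 SE, adjusted p = 1.9e-05).

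Among the cold and dehydration genes, COR15B was at 166, 146 and 154 CPM in short day and 3.46, 2.24 and 2.57 CPM after FRP (log2 fold change -5.82 ± 0.17 SE, adjusted p = 4.5e-06). The dehydrin LTI30 was at 133, 135 and 139 CPM in short day and 2.7, 3.59 and 2.87 CPM after FRP (log2 fold change -5.47 ± 0.12 SE, adjusted p = 2.2e-06). AHP4, a phosphotransfer protein of the cytokinin pathway, was at 12.4, 11.9 and 11.3 CPM in short day and 0.322, 0.497 and 0.489 CPM after FRP (log2 fold change -4.75 ± 0.15 SE, adjusted p = 5.9e-06). TSF (AT4G20370, chromosome 4, 11000771 to 11003010), the FT relative, had 105, 111 and 115 reads in short day and 4, 2 and 4 after FRP (log2 fold change -5.15 ± 0.25 SE, adjusted p = 1.9e-05). Its short-day libraries held over 20-fold more reads than its FRP libraries. All 20 of these genes remained called with the trends removed and in each of the fits that left out 1 library. A call in all 6 libraries and again in replicates 1 and 3 was a condition of their choice. The fits that left out 1 library are therefore no separate check of them. On the way down the ranking 4 rises and 5 falls without a symbol were passed over.

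**Figure D2:**
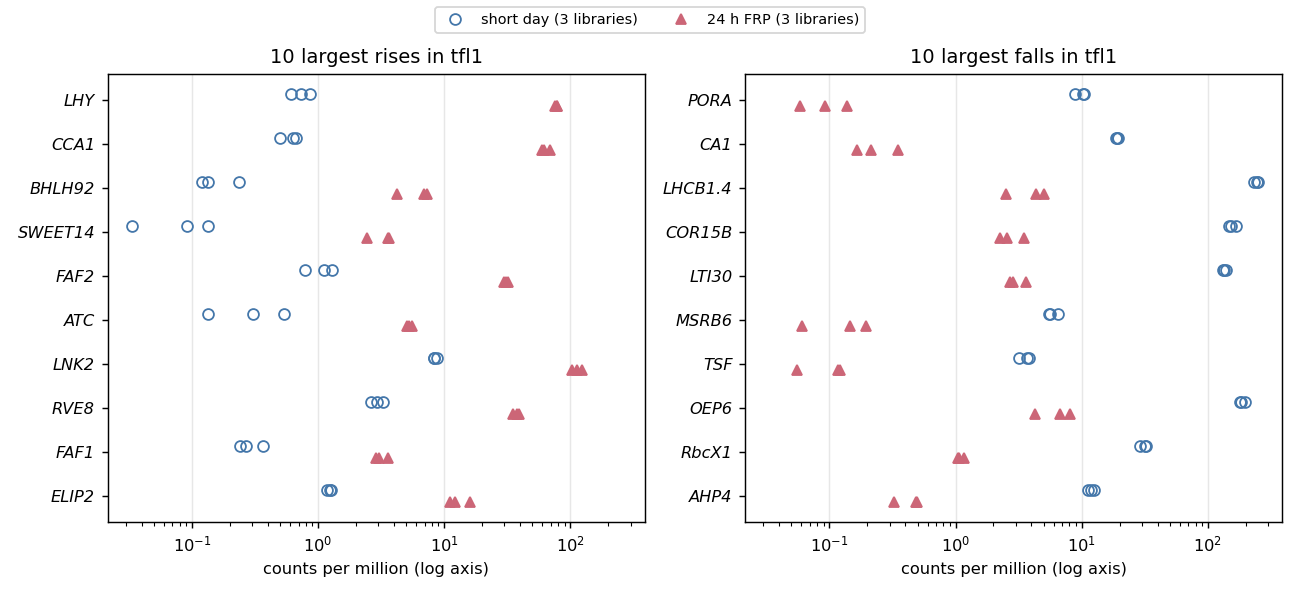
CPM (log axis) in each tfl1 library for the 10 largest rises (left) and 10 largest falls (right) with a gene symbol; open circles are short-day and triangles FRP libraries. Genes were chosen to have no overlap between groups. LHY was at 0.61 to 0.87 CPM in short day and 75.4 to 79.0 CPM after FRP.

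The clock genes split by their phase. Of 9 morning genes, 8 rose and 1 fell, with a median log2 fold change of 2.82 against -0.01 over all genes tested, and the only fall was that of AT5G52660, a MYB gene without a symbol in the reference (23.7, 23.9 and 23.4 CPM in short day and 9.82, 9.5 and 9.35 CPM after FRP). Of the 5 pseudo-response regulators, PRR9, the earliest of the series in the day, rose (1.42, 1.1 and 1.21 CPM in short day and 5.83, 10.8 and 8.31 CPM after FRP; log2 fold change 2.74 ± 0.26 SE, adjusted p = 2.5e-04). PRR5 fell (41.8, 41.4 and 39.3 CPM in short day and 12.8, 21.6 and 16.2 CPM after FRP; log2 fold change -1.27 ± 0.18 SE, adjusted p = 0.0012), although its call was lost in 4 of the 6 fits that left out 1 library. TOC1 fell too (213, 199.6 and 210.1 CPM in short day and 103, 121 and 107 CPM after FRP; log2 fold change -0.91 ± 0.08 SE, adjusted p = 1.6e-04).

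No evening gene rose. The list holds 9, of which 5 fell as counted, 5 to 6 with 1 library left out, and 9 with the trends removed. FKF1, a blue-light receptor that acts on CO, fell most (80.2, 76.2 and 77.8 CPM in short day and 3.08, 5.33 and 4.61 CPM after FRP; log2 fold change -4.17 ± 0.19 SE, adjusted p = 1.6e-05). The evening complex members ELF4 (75.5, 65.4 and 72.4 against 7.97, 6.63 and 7.73 CPM) and LUX (142, 139 and 139.8 against 40.1, 39.4 and 39.8 CPM) fell with log2 changes of -3.26 ± 0.1 and -1.82 ± 0.05. GI, a partner of FKF1, was at 59.9, 74.2 and 65.9 CPM in short day and 52.5, 97.6 and 70.004 CPM after FRP and was not called (log2 fold change 0.14 ± 0.22 SE, adjusted p = 0.6). Its groups overlapped as counted, and with the trends removed its log2 change was -0.83 (adjusted p = 9.7e-05).

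Promoter windows of 300 bases, from 250 before to 50 after each gene's annotated start, were cut from the RefSeq TAIR10.1 genome for 20900 of the 20974 tested genes. They were searched on both strands for 6 short motifs. The G-box CACGTG, which bZIP and bHLH factors bind, was in 8.69% of all windows but in 7 of the 9 of morning clock genes. The evening element AAAATATCT, which CCA1 and LHY bind, was in 2.98% of all windows, in 5.62% of those of genes called lower, in 1.98% of those called higher, and in 26 of the 131 of genes that fell at least 8-fold (19.8%). Among the 20 genes above, 4 of the 10 falls and none of the 10 rises held an evening element, whereas 5 rises and no falls held a G-box. Over all calls the G-box did not divide in this way. It was in 9.23% of windows of genes called higher and in 9.98% of those called lower. At 8-fold or more it was in 9 of 49 rises (18.4%) and 16 of 131 falls (12.2%). The shares of the CCA1-binding site AAAAATCT (7.92% of all windows, 7.88% of the rises and 9.61% of the falls) lay closer together than those of the evening element. A match is a run of letters and not a site shown to be bound.

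The G-box sites upstream of 4 morning genes that rose are shown first, with the motif in capitals and 12 bases on either side, 5′ to 3′ on the strand of the gene. The positions are chr1:37934-37963 (minus strand), chr2:19245386-19245415 (plus), chr5:5693086-5693115 (minus) and chr5:14753234-14753263 (minus), where the motif begins 80, 193, 111 and 163 bases before the start.
LHY: ctacaatatcacCACGTGtcgatctgcgat
CCA1: tagtgtatcagaCACGTGtcgacaaactgg
RVE1: gagaaagagcgaCACGTGgcaaagatggac
RVE2: gaagaaatcctcCACGTGtcattagcatct

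Evening elements of genes that fell are shown in the same way with 10 bases on either side, from 3 plastid genes among the largest falls and from 4 clock genes. AGATATTTT is the motif on the opposite strand. The positions are chr5:21992976-21993004 (minus), chr3:23334085-23334113 (minus), chr4:2118642-2118670 (minus), chr1:25508443-25508471 (plus), chr3:17182979-17183007 (plus), chr5:24674802-24674830 (plus) and chr5:8358715-8358743 (minus).
PORA: attatacattAAAATATCTactgacagaa
OEP6: tgaccagtcgAGATATTTTgaaatgtatc
RbcX1: tccatatcctAGATATTTTaatgtgtgaa
FKF1: tgagtaggctAGATATTTTctcggaatat
LUX: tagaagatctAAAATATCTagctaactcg
TOC1: aaatatcatgAGATATTTTctccaagatg
PRR5: gattttttctAGATATTTTcttttctcca
The motif was not confined to genes that fell, since PRR9, which rose, also held one.

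**Figure D3:**
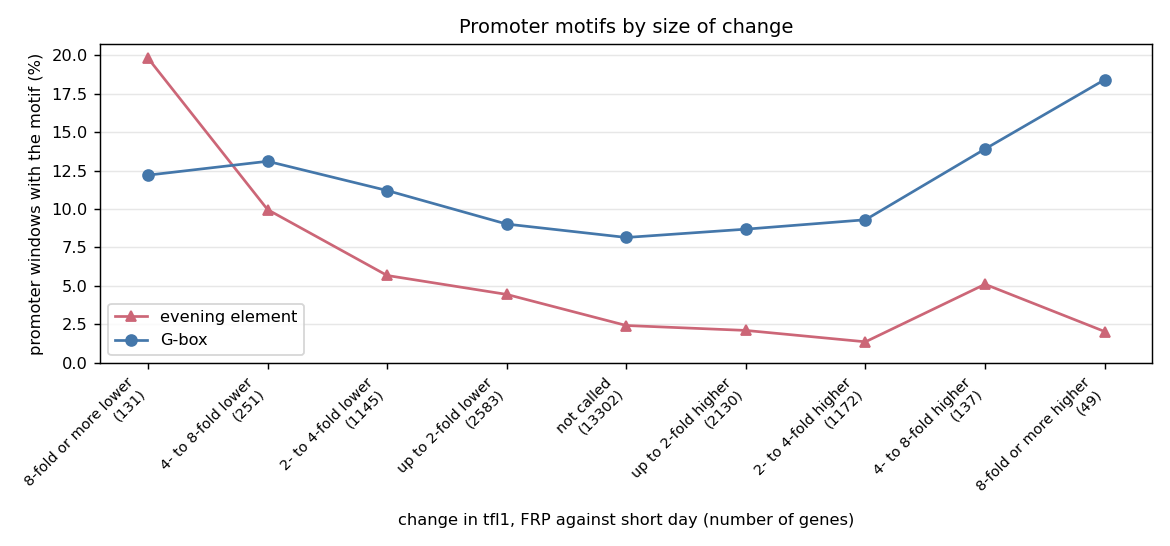
Percent of promoter windows that hold an evening element (triangles) or a G-box (circles), by size and direction of the change after FRP in tfl1, with the number of genes in brackets. The evening element was in 19.8% of windows of genes 8-fold or more lower and in 2.43% of those of genes not called.

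Downstream of the clock, the CYCLING DOF FACTORS that repress CO moved with the morning genes. CDF1 was at 13.1, 12.1 and 11.6 CPM in short day and 28.8, 42.7 and 34.9 CPM after FRP (log2 fold change 1.53 ± 0.15 SE, adjusted p = 2.6e-04), and 5 of the 8 tested members of the CO and CDF list rose, 4 to 6 with 1 library left out. COL2, a CO relative, rose most (2.28 ± 0.1), and COL9 alone fell (-2.04 ± 0.08). CO, the transcription factor that activates FT, was at 0.727, 1.4 and 1.37 CPM in short day and 2.14, 3.37 and 2.81 CPM after FRP. It was not called (log2 fold change 1.26 ± 0.28 SE, adjusted p = 0.0079).

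Among PEBP and FD genes, 4 of 7 tested members rose and 2 fell, with 2 to 3 rises and 1 to 2 falls with 1 library left out, 5 and 2 with the trends removed. ATC and TFL1 are given above. BFT, with 3, 4 and 4 reads in short day and 14, 16 and 12 after FRP, was called (log2 fold change 1.75 ± 0.3 SE, adjusted p = 0.0027), but the call was lost in 6 of the 6 fits that left out 1 library. FD was lower after FRP (22.3, 26.5 and 23.9 CPM in short day and 15.1, 17.4 and 16 CPM after FRP; log2 fold change -0.59 ± 0.09 SE, adjusted p = 0.0017), with the call lost in 3 of the 6 fits that left out 1 library. The TFL1-like members ATC, TFL1 and BFT were thus all higher and the FT-like member TSF lower.

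Flower-forming genes were low, and those called were higher after FRP. LFY, the factor that specifies floral meristems, was at 1.24, 1.5 and 1.27 CPM in short day and 4.57, 3.34 and 3.45 CPM after FRP (log2 fold change 1.5 ± 0.18 SE, adjusted p = 5.6e-04). CAL, a relative of AP1, had 3, 3 and 2 reads in short day and 23, 13 and 18 after FRP (log2 fold change 2.56 ± 0.41 SE, adjusted p = 0.002), and its call was lost in 4 of the 6 fits that left out 1 library. AP1 was at 0.333, 0.3 and 0.436 CPM in short day and 1.58, 0.58 and 1.16 CPM after FRP. FUL, its close relative, was at 1.97, 2.37 and 2.14 CPM in short day and 4.69, 3.04 and 5.5 CPM after FRP. Neither was called (log2 fold change 1.62 ± 0.42 SE, adjusted p = 0.014 and log2 fold change 1.03 ± 0.23 SE, adjusted p = 0.008). Of the 8 tested floral meristem identity genes 3 were called higher as counted, 2 to 6 with 1 library left out (6 without FRP replicate 2) and 6 with the trends removed, with no falls, and AP1 (1.91, adjusted p = 0.0039) and FUL (1.38, adjusted p = 8.9e-04) were both called there.

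The SOC1 group of MADS-box genes, integrators of flowering signals, showed 4 rises and no falls among 7 tested members (3 to 5 with 1 library left out). SOC1 was at 12.9, 10.2 and 11.5 CPM in short day and 41, 31.1 and 35.6 CPM after FRP (log2 fold change 1.64 ± 0.13 SE, adjusted p = 1.2e-04). AGL42 was at 29.3, 27.6 and 26.2 CPM in short day and 47.5, 47 and 46.1 CPM after FRP (log2 fold change 0.76 ± 0.06 SE, adjusted p = 1.5e-04). AGL71 rose most on the log scale (2.84 ± 0.4) from levels of at most 0.10 CPM, and its call was lost in 4 of the 6 fits that left out 1 library. AGL24 was at 147, 134 and 141 CPM in short day and 183, 168 and 175 CPM after FRP, just outside the threshold (log2 fold change 0.32 ± 0.06 SE, adjusted p = 0.0052).

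Among 15 floral repressors 8 fell and 2 rose (1 to 2 rises and 5 to 9 falls with 1 library left out, 1 and 7 with the trends removed). SVP, a MADS-box repressor, was lower (208, 198 and 206 CPM in short day and 125, 116 and 122 CPM after FRP; log2 fold change -0.75 ± 0.06 SE, adjusted p = 1.1e-04). AP2, another repressor, was lower as well (111, 109 and 112 CPM in short day and 69.2, 66.8 and 68.9 CPM after FRP; log2 fold change -0.7 ± 0.05 SE, adjusted p = 1.1e-04). TEM2, which represses FT in leaves, showed the largest fall, 83.6, 78 and 79.9 CPM in short day and 9.47, 31 and 18.7 CPM after FRP (log2 fold change -2.03 ± 0.38 SE, adjusted p = 0.0037), with the call lost in 4 of the 6 fits that left out 1 library. FLC, the repressor that prolonged cold silences, went the other way, 9.08, 8.4 and 8.61 CPM in short day and 14.4, 13.9 and 14.7 CPM after FRP (log2 fold change 0.72 ± 0.07 SE, adjusted p = 2.8e-04). Of the SPL genes, which respond to plant age, SPL4 (7.69, 5.93 and 7.0 against 11.4, 6.38 and 9.59 CPM), SPL5 (1.12, 1.47 and 1.61 against 1.23, 1.1 and 1.07 CPM) and SPL9 (33.4, 32.8 and 32.3 against 37.9, 33 and 34.8 CPM) overlapped between groups and were not called, and SPL3 is listed at 0 in all 6 libraries. Reads that overlapped more than 1 gene were not assigned, so a 0 does not show that a transcript was absent. SPL11 rose most (1.09 ± 0.14), and 3 of 8 tested members rose (1 to 3 rises and 0 falls with 1 library left out, 2 and 1 with the trends removed).

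Light-signalling genes moved in both directions. HY5, a bZIP factor that acts after light, was at 7.78, 7.33 and 6.47 CPM in short day and 15.4, 12 and 12.8 CPM after FRP (log2 fold change 0.9 ± 0.12 SE, adjusted p = 0.0011). COP1, the ubiquitin ligase that removes it, was at 20.1, 24.3 and 23.1 CPM in short day and 37.4, 47.3 and 40.3 CPM after FRP (log2 fold change 0.89 ± 0.11 SE, adjusted p = 7.9e-04). The calls of HY5 and COP1 were each lost in 2 of the 6 fits that left out 1 library. Of the 12 tested genes of this list 8 rose and 3 fell (5 to 8 rises and 3 falls with 1 library left out, 8 and 4 with the trends removed), led by SPA3, a partner of COP1 (4.42, 4.1 and 3.92 against 36.3, 49.5 and 41.5 CPM; 3.35 ± 0.14), and by the B-box gene BBX20 (6.78, 6.37 and 7.27 against 1.17, 1.77 and 1.53 CPM; -2.19 ± 0.16). Over the whole B-box family 9 of 26 tested members rose and 13 fell. BBX30 rose from at most 0.100 to 0.997, 0.801 and 0.886 CPM (3.96 ± 0.38), and BBX14 fell from 76.2, 72.8 and 76.8 to 8.79, 6.24 and 7.27 CPM (-3.34 ± 0.13).

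Targets of shade did not rise as a group. HFR1, a bHLH protein that restrains the shade response, was higher (11, 9.13 and 9.72 CPM in short day and 28.1, 20.2 and 25 CPM after FRP; log2 fold change 1.3 ± 0.14 SE, adjusted p = 3.8e-04). ATHB2 (18.8, 16.5 and 18.3 against 17.4, 15.6 and 16.5 CPM) overlapped between groups, and PIL1 (6.15, 6.07 and 6.37 against 9.41, 7.84 and 8.12 CPM; log2 fold change 0.45 ± 0.1 SE, adjusted p = 0.0072) was not called. PIF4, a bHLH factor that promotes elongation, was lower (151, 143 and 147 CPM in short day and 61.6, 75.3 and 67.1 CPM after FRP; log2 fold change -1.11 ± 0.08 SE, adjusted p = 1.0e-04). PIF7, which mediates shade responses, fell most (1.79, 2.03 and 1.98 against 0.176, 0.0276 and 0.214 CPM; -3.79 ± 0.39). PIF8 rose most (1.75 ± 0.11). Of the 21 tested members 10 fell and 2 rose (2 to 3 rises and 6 to 9 falls with 1 library left out, 4 and 8 with the trends removed).

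The photoreceptor genes are long, with a median transcript of 3857 bases against 1705 over all genes tested. PHYB was at 24.2, 45.7 and 33.5 CPM in short day and 104, 154 and 121 CPM after FRP (log2 fold change 1.88 ± 0.25 SE, adjusted p = 9.5e-04; 0.93 with the trends removed), with its call lost in 2 of the 6 fits that left out 1 library. PHYA was at 50.05, 63.4 and 56.1 CPM in short day and 106, 165 and 125 CPM after FRP (log2 fold change 1.22 ± 0.17 SE, adjusted p = 0.0012), but its log2 change fell to 0.22 (adjusted p = 0.018) with the trends removed. The list's 5 rises and 1 fall of 10 became 1 rise and 2 falls in that fit, and 0 to 5 rises with 1 library left out. UVR8, the ultraviolet-B receptor, was the fall as counted (-0.59 ± 0.05).

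Gibberellin genes showed a divided pattern. GA20OX2, which makes gibberellin precursors, was higher (1.94, 1.6 and 1.84 CPM in short day and 7.01, 7.43 and 7.27 CPM after FRP; log2 fold change 2.01 ± 0.11 SE, adjusted p = 3.1e-05). Its paralogue GA20OX1 was lower (3.33, 3.5 and 3.89 CPM in short day and 2.17, 2.02 and 2.14 CPM after FRP; log2 fold change -0.76 ± 0.12 SE, adjusted p = 0.0017, call lost in 4 of the 6 fits that left out 1 library). GA3OX1, the enzyme of the last activating step, was lower too (11.8, 10.6 and 12.3 CPM in short day and 3.49, 3.01 and 3.39 CPM after FRP; log2 fold change -1.81 ± 0.11 SE, adjusted p = 3.7e-05). The inactivating oxidase GA2OX8 fell most, from at most 0.972 CPM to 0, 0.166 and 0 CPM (log2 fold change -3.7 ± 0.73 SE, adjusted p = 0.0046), a call lost in 5 of the 6 fits that left out 1 library. In all 1 of 9 tested oxidases rose and 4 fell (1 rises and 1 to 5 falls with 1 library left out, 1 and 3 with the trends removed). All 3 gibberellin receptors were called lower, GID1C most (-1.06 ± 0.09), and RGL1, a DELLA repressor, rose most (0.83 ± 0.06). The list of receptors and DELLA genes gave 2 rises and 3 falls of 9 (1 to 2 rises and 1 to 4 falls with 1 library left out, 1 and 4 with the trends removed).

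Auxin repressors of the Aux/IAA family, themselves induced by auxin, fell or were not called. Of 28 members 11 fell and none rose, 7 to 11 falls with 1 library left out, while with the trends removed 9 fell and 3 rose. IAA29 fell most (2.51, 2.17 and 2.01 CPM in short day and 0.41, 0.497 and 0.397 CPM after FRP; log2 fold change -2.35 ± 0.18 SE, adjusted p = 1.1e-04). IAA19 was at 8.05, 7.47 and 7.34 CPM in short day and 9.41, 12.8 and 9.47 CPM after FRP without a call (log2 fold change 0.47 ± 0.14 SE, adjusted p = 0.023). The ARF factors that these proteins restrain gave 6 rises and 1 fall of 15 (3 to 9 rises and 1 falls with 1 library left out, 4 and 5 with the trends removed). ARF19 rose most (1.86 ± 0.33, call lost in 4 of the 6 fits that left out 1 library), and ARF16 fell (-0.63 ± 0.07). MP, the ARF of organ initiation, was at 19, 30.5 and 24.9 CPM in short day and 43.1, 73.3 and 50.2 CPM after FRP and not called (log2 fold change 1.17 ± 0.24 SE, adjusted p = 0.0056). ARF transcripts are long, with a median of 2998 bases. Of 12 auxin transporters 4 fell, PIN4 most (-1.48 ± 0.06), and none rose (0 rises and 2 to 5 falls with 1 library left out, 0 and 6 with the trends removed). GH3.5, which conjugates auxin, rose (42.3, 43.1 and 40.6 against 143, 195 and 153 CPM; 1.96 ± 0.12).

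For cytokinin, LOG5, which releases the active hormone, was at 2.6, 2.83 and 3.32 CPM in short day and 27.3, 25.9 and 26.7 CPM after FRP (log2 fold change 3.19 ± 0.1 SE, adjusted p = 5.2e-06), a rise that stayed called in all 20 alternatives run for it. IPT3, which makes the precursor, was at 14.4, 25 and 20.8 CPM in short day and 34.9, 42.6 and 38.6 CPM after FRP and narrowly missed the threshold (log2 fold change 0.95 ± 0.19 SE, adjusted p = 0.0054). CKX1, a degrading oxidase, also rose (2.11 ± 0.25), and LOG3 fell most (-1.34 ± 0.1). Counts over the 16 tested genes of synthesis and breakdown were 7 higher and 3 lower (3 to 6 and 2 to 3 with 1 library left out). Among the type-A response regulators, which cytokinin induces, 2 of 8 rose (1 to 5 rises and 1 falls with 1 library left out, 6 and 1 with the trends removed), ARR8 most (1.23 ± 0.11), and ARR16 fell (-2.15 ± 0.15).

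Abscisic acid genes had no common direction. NCED3, the key synthetic step, was higher (8.69, 8.17 and 8.24 CPM in short day and 14.5, 17.9 and 14.9 CPM after FRP; log2 fold change 0.92 ± 0.1 SE, adjusted p = 4.1e-04). CYP707A1, which degrades the hormone, was higher too (9.84, 9.4 and 10.5 against 44.9, 66.4 and 49.7 CPM; 2.44 ± 0.16). AFP2, which binds ABI5, was at 6.54, 8.4 and 6.73 CPM in short day and 21.3, 21 and 20.2 CPM after FRP (log2 fold change 1.53 ± 0.11 SE, adjusted p = 7.3e-05). The phosphatase HAI1 overlapped between groups (15.7, 14.7 and 15.5 against 17.2, 15.1 and 15.5 CPM; log2 fold change 0.06 ± 0.08 SE, adjusted p = 0.51). Of the 9 tested receptors 5 fell and 1 rose, PYL5 (-0.78 ± 0.09) and PYL2 (1.73 ± 0.18) being the extremes. The list gave 1 rises and 2 to 6 falls with 1 library left out, 2 and 2 with the trends removed.

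The cold and dehydration response was lower throughout its called members. Of 16 tested genes 10 fell and none rose, with 0 to 2 rises and 6 to 13 falls with 1 library left out, 1 and 10 with the trends removed. The median log2 fold change was -1.83. Members not called included CBF1 (-1.88) and CBF2 (-1.11) and, with positive log2 changes, DDF1 (2.835) and DDF2 (3.18). COR15A, a chloroplast cryoprotectant, was at 285, 262 and 273 CPM in short day and 24.8, 24.7 and 25.7 CPM after FRP (log2 fold change -3.45 ± 0.06 SE, adjusted p = 1.2e-06). CBF3, an AP2-domain factor that activates these genes, was at 26.9, 27 and 26.6 CPM in short day and 1.82, 6.13 and 3.57 CPM after FRP (log2 fold change -2.8 ± 0.36 SE, adjusted p = 7.9e-04). RD29A, a desiccation-induced gene, was at 469, 702 and 576 CPM in short day and 56.2, 138 and 85 CPM after FRP (log2 fold change -2.65 ± 0.34 SE, adjusted p = 7.7e-04). KIN1 and COR6.6 are near-identical neighbours whose reads the counting may have shared, and both fell (-2.53 ± 0.16 and -3.15 ± 0.06).

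Transcripts of several genes of brassinosteroid synthesis and inactivation were lower. DWF4, the rate-limiting hydroxylase, was at 19.7, 19.6 and 18.8 CPM in short day and 11.6, 12.7 and 13.4 CPM after FRP (log2 fold change -0.62 ± 0.07 SE, adjusted p = 6.0e-04). In all 7 of 11 genes of synthesis and inactivation fell, 1 to 7 with 1 library left out, with BR6OX1 lowest (-1.3 ± 0.17). CYP90D1 alone rose (0.63 ± 0.11; call lost in 4 of the 6 fits that left out 1 library). BIM1, a bHLH partner of the response factors, was at 43.2, 59.7 and 52.9 CPM in short day and 62.6, 90.1 and 71.6 CPM after FRP and not called (log2 fold change 0.53 ± 0.17 SE, adjusted p = 0.029). Of 14 tested brassinosteroid signalling genes 3 rose and 4 fell. With 1 library left out 1 to 4 rose and 1 to 4 fell, and with the trends removed 2 rose and 7 fell. In strigolactone signalling, which restrains branching, SMXL6 was at 29, 36.4 and 34.5 CPM in short day and 58.3, 84.8 and 69.1 CPM after FRP (log2 fold change 1.09 ± 0.15 SE, adjusted p = 0.0012), but its log2 change was 0.24 with the trends removed (adjusted p = 0.0052). Of the 9 tested genes 4 rose, MAX1 most (1.12 ± 0.11), and 2 fell, MAX4 most (-1.11 ± 0.15), both enzymes of strigolactone synthesis (1 to 4 rises and 0 to 2 falls with 1 library left out, 1 and 1 with the trends removed).

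Bud dormancy genes diverged. The HD-ZIP gene HB40 was higher (2.79, 2.07 and 2.58 CPM in short day and 5.92, 5.36 and 5.31 CPM after FRP; log2 fold change 1.16 ± 0.14 SE, adjusted p = 5.6e-04). BRC1, which holds axillary buds dormant, was at 2.09, 2.67 and 2.04 CPM in short day and 3.9, 6.99 and 4.4 CPM after FRP and not called (log2 fold change 1.17 ± 0.25 SE, adjusted p = 0.0066). DRM1, a dormancy-associated transcript of unknown biochemical role, was lower (975, 867 and 905 CPM in short day and 293, 226 and 264 CPM after FRP; log2 fold change -1.81 ± 0.11 SE, adjusted p = 4.0e-05). Its relative DRM2 fell most (1898, 1654 and 1764 CPM in short day and 101, 117 and 108 CPM after FRP; log2 fold change -4.03 ± 0.09 SE, adjusted p = 2.6e-06). HB21, an HD-ZIP gene that acts after BRC1, rose most (1.83 ± 0.09). The list gave 4 rises and 2 falls.

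Nuclear genes of photosynthesis were lower throughout. All 42 tested of 43 listed genes of the photosystems, antenna and the small subunit of Rubisco fell, with a median log2 fold change of -1.72, 40 to 42 of them with 1 library left out and 41 with the trends removed. LHCB2.3 was at 60.9, 58.2 and 60.2 CPM in short day and 20.4, 16.4 and 18.8 CPM after FRP (log2 fold change -1.69 ± 0.09 SE, adjusted p = 2.8e-05). RBCS2B was at 57.6, 54.5 and 55.7 CPM in short day and 6.19, 3.67 and 4.61 CPM after FRP (log2 fold change -3.54 ± 0.18 SE, adjusted p = 2.3e-05), and the smallest fall was that of LHCB4.3 (-0.44 ± 0.07). Family members such as the LHCB1 and RBCS genes are near-identical, so reads may have been split or dropped among them. The list also marks leaf mesophyll, and its summed level was 35657 to 38790 CPM in short day and 9390 to 10940 CPM after FRP. Less green tissue and less transcript per cell cannot be told apart in these bulk samples. Of 42 windows 14 held a G-box (33.3% against 8.69%) and none an evening element. Of the early light-induced genes, which protect chloroplasts under excess light, ELIP2 rose, while ELIP1 was at 0.394, 0.667 and 0.603 CPM in short day and 1.17, 0.856 and 0.977 CPM after FRP and not called (log2 fold change 0.86 ± 0.25 SE, adjusted p = 0.022).

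Sugar genes were mixed. The starvation marker SEN1 was lower (12.6, 11.9 and 12.4 CPM in short day and 2.96, 1.82 and 2.72 CPM after FRP; log2 fold change -2.3 ± 0.17 SE, adjusted p = 9.2e-05). The starvation genes DIN6 (49.9, 61.1 and 54.7 against 56.5, 60.1 and 58.1 CPM) and DIN10 (26.8, 74.9 and 52.8 against 64.9, 58.2 and 63.5 CPM) overlapped between groups. Of 14 tested starvation genes 5 fell, AT3G15450 most (-2.76 ± 0.09), and BCAT2 alone rose (0.71 ± 0.08), with 1 rises and 4 to 6 falls with 1 library left out, 2 and 5 with the trends removed. Trehalose phosphatase TPPJ was at 12.1, 21.8 and 18.5 CPM in short day and 33.2, 48.7 and 37.5 CPM after FRP (log2 fold change 1.19 ± 0.23 SE, adjusted p = 0.0046), with the call lost in 5 of the 6 fits that left out 1 library. TPPH was at 10.6, 10.1 and 12.4 CPM in short day and 15.6, 26.6 and 20.005 CPM after FRP without a call (log2 fold change 0.91 ± 0.2 SE, adjusted p = 0.0064). TPPD rose most of that family (1.82 ± 0.14) and TPPE fell (-1.52 ± 0.13). Of 10 tested SWEET exporters 6 fell, SWEET13 most (9.66, 8.03 and 8.04 against 1.2, 0.746 and 0.733 CPM; -3.26 ± 0.2), and SWEET14 alone rose (1 rises and 4 to 6 falls with 1 library left out, 1 and 5 with the trends removed). SWEET10 had 5, 6 and 6 reads in short day and 0, 0 and 0 after FRP and was below the filter. Among 30 starch genes 8 fell and 2 rose (1 to 7 rises and 5 to 11 falls with 1 library left out, 1 and 15 with the trends removed). SEX4, a phosphatase of starch breakdown, fell most (-1.39 ± 0.07), and BAM9 rose most (1.6 ± 0.12). APL3, a subunit of ADP-glucose pyrophosphorylase, was at 87.6, 85.3 and 85.4 CPM in short day and 63.5, 54.5 and 64.1 CPM after FRP (log2 fold change -0.5 ± 0.08 SE, adjusted p = 0.0018; call lost in 4 of the 6 fits that left out 1 library). GBSS1, which makes amylose, was at 46.9, 72.6 and 62.3 CPM in short day and 45.7, 51.5 and 46 CPM after FRP without a call (log2 fold change -0.34 ± 0.16 SE, adjusted p = 0.093).

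Transcripts of most flavonoid and anthocyanin genes were lower, among regulators and enzymes. Of 19 tested flavonoid genes 14 fell and 1 rose, 13 to 14 falls with 1 library left out, with a median of -1.99. CHS, the first committed enzyme, was at 167, 168 and 166 CPM in short day and 77.7, 56.2 and 71.7 CPM after FRP (log2 fold change -1.29 ± 0.12 SE, adjusted p = 2.2e-04). DFR, which opens the anthocyanin branch, was at 287, 279.97 and 289.8 CPM in short day and 58.8, 26.8 and 43.7 CPM after FRP (log2 fold change -2.73 ± 0.27 SE, adjusted p = 2.7e-04). The MYB activator PAP1 fell (-2.45 ± 0.13), and so did MYBL2, a repressor of the same branch, which fell most (-3.03 ± 0.18). EGL3, a bHLH partner, was the rise (0.84 ± 0.09). FLS1 (0.076) and the regulators GL3 (0.43), MYB11 (0.28) and MYB12 (0.66) were not called.

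Defence genes went both ways within each pathway. PR1, a marker of salicylate response, was lower (38.6, 36.5 and 39.6 CPM in short day and 10.7, 5.61 and 8.03 CPM after FRP; log2 fold change -2.24 ± 0.21 SE, adjusted p = 2.4e-04). EDS1, which acts before salicylate, was higher (19.2, 21.2 and 20.2 against 60.3, 86.6 and 70.4 CPM; 1.84 ± 0.14). In jasmonate, LOX3, an early synthetic enzyme, rose (5.84, 14.9 and 9.85 against 47.3, 124 and 74.5 CPM; 3.01 ± 0.46; call lost in 3 of the 6 fits that left out 1 library). The lipoxygenase LOX2 fell (56.9, 102 and 78.9 CPM in short day and 41.9, 38.8 and 39.1 CPM after FRP; log2 fold change -0.99 ± 0.2 SE, adjusted p = 0.0048; call lost in 5 of the 6 fits that left out 1 library). The storage protein VSP2 fell too (132, 139 and 138 CPM in short day and 90.8, 81.9 and 86.4 CPM after FRP; log2 fold change -0.66 ± 0.06 SE, adjusted p = 2.7e-04). Of 19 tested jasmonate genes 6 rose and 6 fell, VSP1 most (-1.3 ± 0.08), with 2 to 7 rises and 3 to 4 falls with 1 library left out, 8 and 5 with the trends removed. Of 18 salicylate and senescence genes 5 rose and 7 fell (4 to 5 rises and 4 to 8 falls with 1 library left out, 6 and 6 with the trends removed). MYB29, a regulator of aliphatic glucosinolates, was at 158, 147 and 147 CPM in short day and 128, 136 and 128 CPM after FRP (log2 fold change -0.2 ± 0.06 SE, adjusted p = 0.024) and was not called. MYB76, another regulator of that pathway, fell (4.0, 4.4 and 4.89 against 0.322, 0.58 and 0.397 CPM; -3.33 ± 0.21). Over 22 tested glucosinolate genes 2 rose, UGT74B1 most (1.03 ± 0.13), and 3 fell (1 to 3 rises and 2 to 5 falls with 1 library left out, 4 and 3 with the trends removed). As counted both shares lay below those of all genes tested (16.7% higher and 19.6% lower). WRKY factors gave 17 rises and 8 falls of 59, with WRKY62 rising most (3.74 ± 0.25) and WRKY65 falling most (-0.71 ± 0.11), and 11 to 19 rises and 1 to 9 falls with 1 library left out, 21 and 7 with the trends removed. The share of WRKY falls lay below the 19.6% of all genes tested.

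Meristem identity genes rose modestly. STM was at 142, 125 and 131 CPM in short day and 228, 244 and 232 CPM after FRP (log2 fold change 0.82 ± 0.07 SE, adjusted p = 1.5e-04). KNAT1, its relative with a role in stem growth, rose most of the list (48.5, 52.6 and 49.9 against 138, 176 and 151 CPM; 1.62 ± 0.1). ATH1, a homeobox partner of STM, was lower (85.1, 80.5 and 83.2 CPM in short day and 60.1, 54.1 and 59.4 CPM after FRP; log2 fold change -0.52 ± 0.07 SE, adjusted p = 7.9e-04), with its call lost in 3 of the 6 fits that left out 1 library. Of 9 tested members 5 rose and 1 fell (5 rises and 0 to 1 falls with 1 library left out, 5 and 2 with the trends removed). The boundary genes BOP1 (7.02, 7.97 and 7.1 against 9.91, 11.6 and 8.95 CPM) and BOP2 (31.7, 28.3 and 30.3 against 28.4, 31.3 and 30.2 CPM) were not called, and 2 of 11 boundary genes rose, LOF1 most (0.92 ± 0.08), with 1 to 3 rises and 0 falls with 1 library left out, 3 and 0 with the trends removed. The share of boundary genes that rose was near the 16.7% of all genes tested.

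Replication genes were higher, while mitotic genes had no common direction. Of 8 replication genes 7 rose and none fell (4 to 7 with 1 library left out, 7 with the trends removed): all 6 listed MCM helicase subunits rose, MCM2 most (15.4, 19.2 and 17.1 against 43, 59.7 and 48.1 CPM; 1.55 ± 0.14), and PCNA1, the sliding clamp, rose as well (0.67 ± 0.06). The site II element TGGGCC was in 6 of their 8 windows against 18.4% of all. No histone gene rose, and 18 of 46 fell (5 to 33 with 1 library left out; 16 with the trends removed). CYCB1;1, a mitotic cyclin, was at 11.1, 11.7 and 12.6 CPM in short day and 13, 13.9 and 14.6 CPM after FRP (log2 fold change 0.23 ± 0.08 SE, adjusted p = 0.043). CYCD3;1, a cyclin of the step before replication, was at 90.4, 85.3 and 84 CPM in short day and 75.2, 72.1 and 75.9 CPM after FRP (log2 fold change -0.22 ± 0.06 SE, adjusted p = 0.017). Neither was called. Of 19 mitotic genes 3 rose, CYCB3;1 most (1.42 ± 0.2), and 6 fell, CDKB1;2 most (-0.67 ± 0.09), with 0 to 3 rises and 1 to 6 falls with 1 library left out, 5 and 4 with the trends removed. The share of mitotic genes that rose was near the 16.7% of all genes tested.

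The counts for chromatin and small-RNA genes, which are long, depended on length and on single libraries. As counted 19 of 41 chromatin and corepressor genes rose and 1 fell, with a median log2 fold change of 0.99 that became 0.24 with the trends removed, and 0 to 28 rose with 1 library left out. BRM, a chromatin remodelling ATPase, was at 24.9, 66.5 and 46.3 CPM in short day and 83.2, 202 and 124 CPM after FRP and not called (log2 fold change 1.57 ± 0.43 SE, adjusted p = 0.017; 0.22 with the trends removed). For small RNA, 7 of 13 rose as counted, 3 with the trends removed and 0 to 9 with 1 library left out. HDA18 (1.78 ± 0.33) rose most and MSI1 (-0.29 ± 0.06) was the fall, with calls lost in 4 of the 6 fits that left out 1 library and 5 of the 6 fits that left out 1 library. DCL1, which makes microRNAs, went from a log2 change of 1.52 to 0.29 between the 2 fits.

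Markers of other tissues were read for the whole of each list. None of 7 phloem and none of 9 secondary-wall markers were called. Their summed levels were 546 to 576 CPM in short day against 565 to 898 CPM after FRP for phloem, and 73.0 to 89.3 CPM against 94.7 to 203 CPM for the secondary wall. Of 6 guard-cell lineage markers 4 fell, with a sum of 28.0 to 31.4 CPM in short day and 9.86 to 13.2 CPM after FRP. MUTE, which commits cells to the guard-cell fate, fell most (2.39, 1.7 and 1.41 against 0.0879, 0.138 and 0.0916 CPM; -4.06 ± 0.35). Of 7 root markers RHD6 and PLT1 were at 0 in all libraries, RSL4 had 1 read in all, and the summed level of the 2 that passed the filter, 312 to 339 CPM in short day and 248 to 289 CPM after FRP, was nearly all PYK10. The other of these 2, WOX5, was called lower, with log2 changes of -2.41 to -1.90 with 1 library left out. Of 4 anther markers MS1 and DYT1 were at 0. Among 6 epidermis markers 1 rose (PDF2) and 1 fell (ABCG12), near the shares of all genes tested (16.7% and 19.6%). With 1 library left out 0 to 1 rose and 1 to 2 fell, and with the trends removed 0 rose and 2 fell. Of 3 tested trichome markers 1 rose (GL2) and none fell, with 0 to 1 rises with 1 library left out. The part of these tissues in the results above was not tested.

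**Figure D4:**
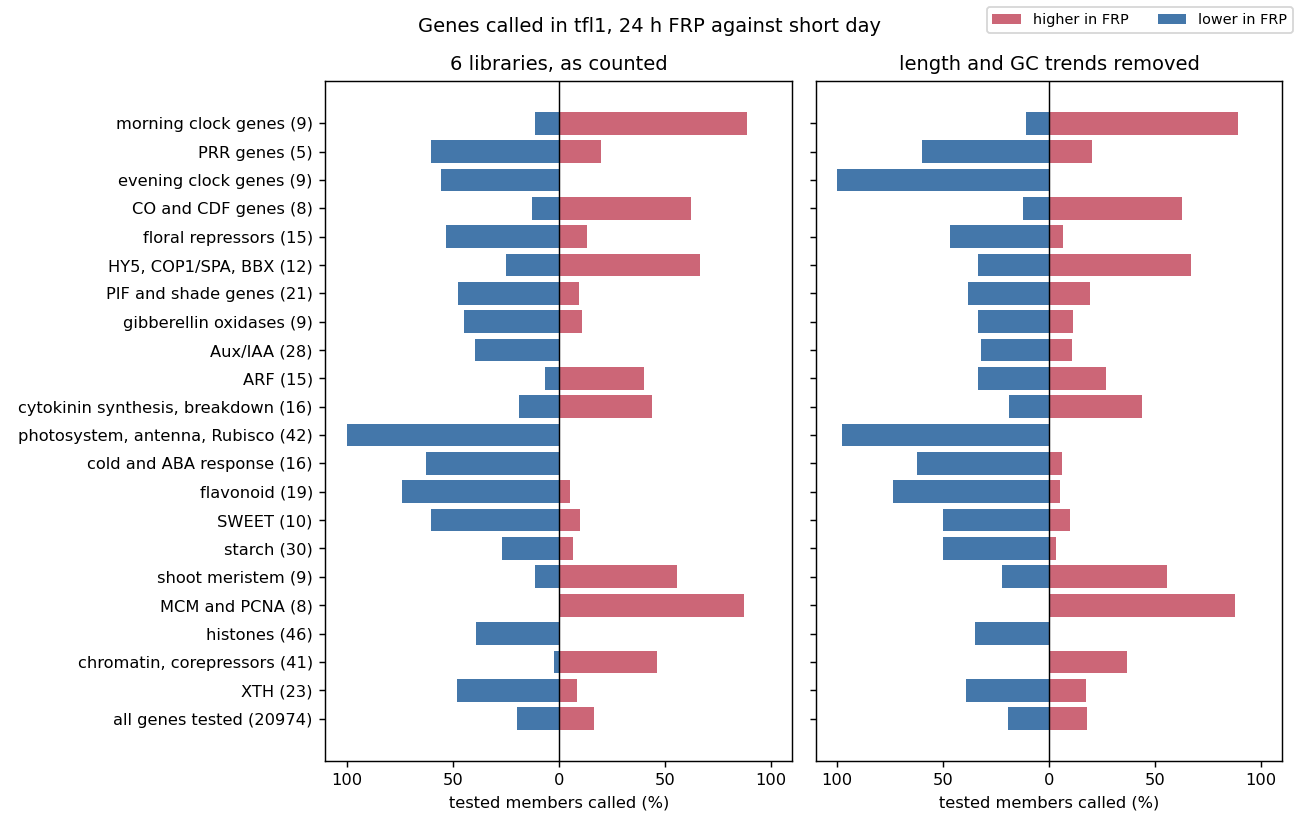
Percent of the tested members of each list (number tested in brackets) called higher (red, right) or lower (blue, left) after FRP in tfl1, as counted (left panel) and with length and GC trends removed (right panel). The photosystem list was lower in all 42 members as counted, and the bottom bar gives all 20974 genes.

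Whether FRP acted differently in tfl1 than in the other genotypes was tested as a difference of FRP effects, with all 18 libraries in a single model of 21442 genes. Against wild type the effect was higher in tfl1 for 468 genes (2.18%) and lower for 551 (2.57%), 4.75% together, and against ft-10 higher for 1860 (8.67%) and lower for 1978 (9.22%), 17.9% together. In the same model FRP raised 5.43% and lowered 6.49% of genes in ft-10, and 24.5% and 28.1% in wild type. Both comparisons share the tfl1 libraries. The counts turned on short-day replicate 1 of wild type: without it they became 2845 and 2500 against wild type and 4476 and 4387 against ft-10. Against wild type the total of 1019 became 633, 546 and 524 without short-day replicates 1, 2 and 3 of tfl1, and 616 and 531 without its FRP replicates 1 and 3. Against ft-10 the total of 3838 became 2128 and 2353 without short-day replicates 1 and 3 of tfl1, and 2417 and 2391 without its FRP replicates 2 and 3. All genes named in the following lines for a difference from wild type stayed past the threshold, in the same direction, without that library, with the trends removed and in the 12 libraries that the labels mark as analysed by the study.

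TSF separated tfl1 from both other genotypes in direction. It fell in tfl1 (-5.11 ± 0.25 SE) and rose in wild type (2.67 ± 0.26) and ft-10 (1.51 ± 0.21), a difference of -7.79 from wild type (adjusted p = 2.0e-08) and -6.63 from ft-10 (adjusted p = 1.6e-08). On the common scale of the 18 libraries its short-day level was 3.1, 3.62 and 3.77 CPM in tfl1, 0.29, 0.15 and 0.24 CPM in wild type and 0.58, 0.36 and 0.40 CPM in ft-10. After FRP the order turned, with 0.12, 0.06 and 0.12 CPM in tfl1, 1.36, 1.58 and 1.39 CPM in wild type and 1.21, 1.26 and 1.4 CPM in ft-10. AHP4 showed the same kind of start: 12.2, 11.6 and 11.1 CPM in short-day tfl1 against 1.53 to 4.92 CPM in short-day wild type, with FRP effects of -4.73 ± 0.35 in tfl1 and 0.68 ± 0.29 in wild type (difference -5.41, adjusted p = 2.8e-06).

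PR1 fell in tfl1 (-2.21 ± 0.61) from short-day levels of 37.7, 35.7 and 38.8 CPM on the scale of the 18 libraries. In wild type it rose (3.73 ± 0.82) from levels of at most 0.70 CPM, but its wild type FRP libraries were far apart, at 15.7, 0.24 and 7.53 CPM (difference -5.94, adjusted p = 0.0015). TFL1 rose in all 3 genotypes and most in tfl1, by 1.57 more than in wild type (adjusted p = 0.0039) and 1.61 more than in ft-10 (adjusted p = 0.0014). FLC rose in tfl1 and was at -0.41 ± 0.14 in wild type (difference 1.15, adjusted p = 0.0014). The cold genes LTI30, COR15A and COR15B fell more in tfl1 than in wild type, with log2 differences of -2.9, -1.97 and -1.75. In all 6 of the 17 cold and ABA response genes tested in the 18-library model were lower in this sense (background 2.57%), 12 without the wild type library named above. The named cold genes also started higher in tfl1, on the scale of the 18 libraries. Short-day LTI30 was at 130 to 136.1 CPM in tfl1 and 37.8 to 48 CPM in wild type. COR15A was at 255.8 to 277.9 and 94.6 to 124.7 CPM, and COR15B at 143.1 to 162.3 and 59.1 to 84.9 CPM. The part of these starting levels in the differences was not tested.

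Glucosinolate genes differed from wild type mostly upward. For 11 of 22 the effect was higher in tfl1 (background 2.18%; 13 without short-day replicate 1 of wild type), MYB29 by 2.38 (adjusted p = 1.0e-06), with an effect of -2.55 ± 0.13 in wild type. Starch genes lay on the other side, with 7 of 30 lower (13 without that library), among them GBSS1 (-2.0) and APL3 (-1.73), which had risen in wild type (1.69 ± 0.2 and 1.25 ± 0.08). The FRP effects on VSP2 (2.85), IAA19 (1.9), GA20OX2 (1.56) and SWEET14 (3.69) were higher in tfl1 in the same test. Within tfl1, however, VSP2 was called lower after FRP and IAA19 was not called. The wild type short-day libraries were far apart for VSP2, at 193.6, 654.5 and 987.1 CPM on the scale of the 18 libraries. None of the 9 morning clock, 5 PRR and 9 evening genes differed in effect from wild type past the threshold. Without short-day replicate 1 of wild type these counts became 1, 4 and 5, all with a lower effect in tfl1.

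Against ft-10, photosystem genes differed downward. In 40 of 42 the FRP effect was lower in tfl1 (background 9.22%; 37 with the trends removed), and the effect in ft-10 had a median of -0.30 against -1.72 in tfl1. Wild type was close to tfl1 in this list, with 41 of the 42 genes called lower and a median of -1.69. Against wild type the effect in tfl1 was lower in 2 and higher in 0 (4 and 2 without short-day replicate 1 of wild type). PORA (-4.94), CA1 (-4.63), LHCB1.4 (-3.47), OEP6 (-3.39) and RbcX1 (-2.65) were among the genes with a lower effect in tfl1 than in ft-10. IAA29 fell in tfl1 and was at 0.89 ± 0.35 in ft-10 (difference -3.21, adjusted p = 4.8e-04). Higher effects in tfl1 than in ft-10 were found for LOG5 (2.59), FAF1 (2.76) and FAF2 (1.39), and for 6 of the 8 replication genes (background 8.67%). In the 12 libraries marked as analysed FAF1 was outside the threshold of the same test (2.41, adjusted p = 0.016).

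**Figure D5:**
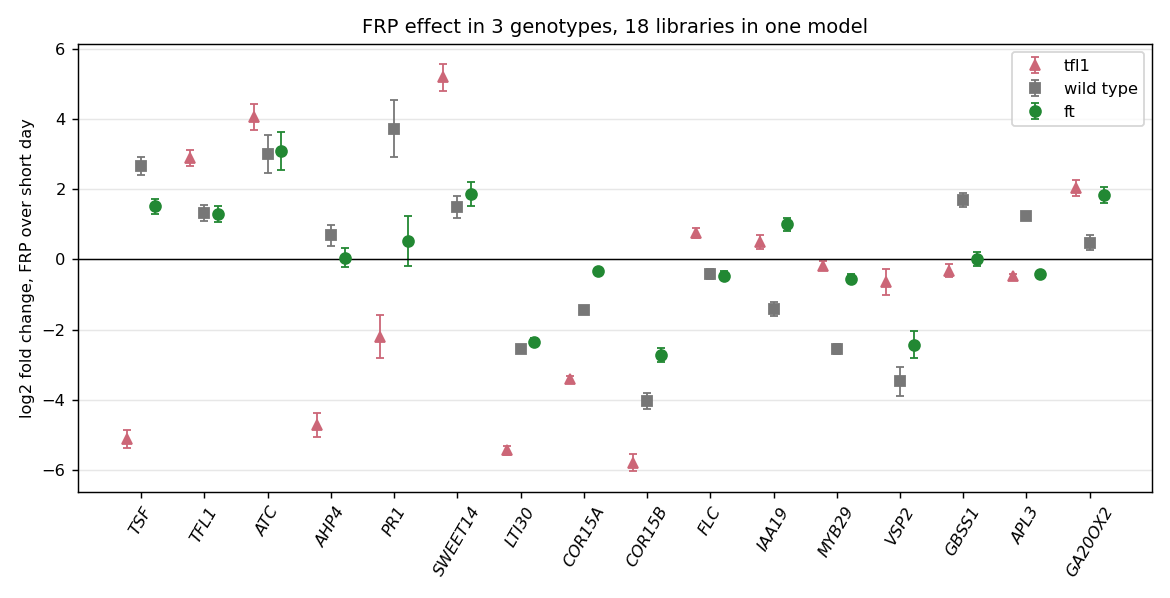
Log2 fold change of FRP over short day in tfl1 (triangles), wild type (squares) and ft-10 (circles), from a single model of 18 libraries with bars of 1 standard error, for ATC and 15 genes whose effect in tfl1 differed from wild type. TSF was at -5.11 in tfl1, 2.67 in wild type and 1.51 in ft-10.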

How the data were processed

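RNA-seq reads of shoot apices were trimmed, aligned to TAIR10 with STAR 2.5.3a and counted per gene with HTSeq 0.7.2 without strand and at a minimum alignment quality of 30, per the study's methods; the authors deposited 1 table of raw read counts per library. Rows of unassigned reads (0.552 to 0.739% without a feature, 2.78 to 3.08% ambiguous and 4.94 to 6.36% not unique in the tfl1 libraries) were left out. Without strand, reads of overlapping antisense genes cannot be told apart.

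Counts were analysed in R 4.3.3 with edgeR 4.0.16 (TMM scaling, quasi-likelihood test, Benjamini-Hochberg adjustment over all genes tested). The 6 tfl1 libraries were fitted alone, and differences between genotypes were fitted as interaction terms over all 18. Alternatives were DESeq2 1.42.0, other scalings and filters, a replicate block, each library left out, replicates 1 and 3 alone (those the labels mark as analysed by the authors), and removal of each library's smooth trend (natural splines of 5 degrees of freedom each, fitted to log2 CPM and entered as offsets) on transcript length and GC content, available for 99.7% of genes tested. The main fit and the removal of a length trend were tried on simulated data. For the main fit 200 of 20759 genes were changed 2-fold, and 197 were recovered with 1 false call. That simulation had the same spread for all genes, no length trend and far fewer changed genes than were called here. It therefore does not give the rate of false calls in these data.

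Named genes were the 10 largest rises and 10 largest falls among genes called in all 6 and in the 4 libraries of replicates 1 and 3, with a mean count of at least 50, no overlap and a symbol, then core genes of each list whatever their values (1 of them is not reported here), and the called member of each list with the largest rise and fall. Other genes were named after their values were seen. The members and lists were chosen with earlier results of these data known. Gene positions and promoter windows came from the RefSeq TAIR10.1 annotation and genome.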

Additional observations from a re-analysis of the deposited data

Results flagged for a closer look

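Of 91 named genes with a test, 15 had an FRP effect in tfl1 that differed from that in wild type past an adjusted p of 0.005 in edgeR's quasi-likelihood test of the difference itself, and 31 differed from ft-10, with 8 in both. Values are the log2 effect in tfl1 minus that in the other genotype.

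Against wild type they were SWEET14 3.69, COR15B -1.75, LTI30 -2.90, TSF -7.79, AHP4 -5.41, TFL1 1.57, FLC 1.15, GA20OX2 1.56, IAA19 1.90, COR15A -1.97, GBSS1 -2.0, APL3 -1.73, MYB29 2.38, VSP2 2.85 and PR1 -5.94. All 15 stayed past the threshold without short-day replicate 1 of wild type, with length and GC trends removed and in the 12 libraries marked as analysed. PR1 differed widely between the wild type FRP libraries (15.7, 0.24 and 7.53 CPM).

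Against ft-10 they were CCA1 1.5, SWEET14 3.32, FAF2 1.39, FAF1 2.76, PORA -4.94, CA1 -4.63, LHCB1.4 -3.47, COR15B -3.07, LTI30 -3.09, MSRB6 -2.22, TSF -6.63, OEP6 -3.39, RbcX1 -2.65, AHP4 -4.78, FKF1 -1.13, TFL1 1.61, SVP -0.82, FLC 1.21, HFR1 -2.95, ATHB2 -1.34, PIF4 -0.86, COP1 0.95, IAA29 -3.21, LOG5 2.59, AFP2 1.29, COR15A -3.08, DRM1 -1.43, SEN1 -1.79, LHCB2.3 -2.24, ELIP1 -2.40 and CYCB1;1 0.95. With the trends removed 26 of these were past the threshold. In the 12 libraries marked as analysed 28 were, without FAF1, SEN1 and ELIP1.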

How the results depend on the processing

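The number of genes called in tfl1 was 7605 (3493 higher, 4112 lower). An adjusted p of at most 0.05 gave 13420 (6661 and 6759), and a change of at least 2-fold gave 2888 (1359 and 1529). DESeq2 called 5304 higher and 4977 lower. Leaving out 1 library gave 3000 to 8637 calls (917 to 4438 higher, 2076 to 4324 lower). Among the listed genes 364 were called, 222 of them at least 2-fold, and 222 to 393 with 1 library left out. Of the 20 genes with the largest changes 12 had at least 10 counts in every library. All 20 were called with 1 library left out, but they had been chosen for calls in these same libraries.

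For the difference from wild type, 1019 genes (468 higher, 551 lower) became 5906 (2948 and 2958) in the 12 libraries marked as analysed, 1748 (1025 higher) with the trends removed, 3543 (1929 and 1614) at 0.05, and 524 to 5345 (215 to 2845 and 309 to 2500) with 1 library left out. For the difference from ft-10, 3838 genes became 8573 (4367 and 4206) in the 12 libraries, 9396 (4828 and 4568) at 0.05, and 2128 to 8863 (859 to 4476 and 1269 to 4387) with 1 left out. The cause of these moves was not tested.

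Samples with the same replicate number correlated in their deviations from the group means by 0.40, 0.39 and -0.0096 for numbers 1, 2 and 3, so the numbers were not taken as a pairing. With the replicate number as a block 10144 genes were called (5227 higher, 4917 lower), 922 for the difference from wild type and 3036 from ft-10.

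Of 191 genes followed, 164 were called, 91 of these under every alternative, and 2 changed sign. The log2 fold changes that turned sign follow by alternative. With replicates 1 and 3 alone it was GI -0.037. With the 12 libraries GI -0.011. With the trends removed GI -0.83, ATHB2 0.17, HAI1 -0.038, DIN6 -0.27, DIN10 -0.26, MYB29 0.021, PDF2 -0.20, GL2 -0.020. With the block and the trends removed GI -0.83, ATHB2 0.17, HAI1 -0.040, DIN6 -0.27, DIN10 -0.22, MYB29 0.020, PDF2 -0.21, GL2 -0.010. With replicates 1 and 3 and the trends removed (an alternative chosen after seeing the data) GI -0.92, ATHB2 0.13, HAI1 -0.0063, DIN6 -0.18, PDF2 -0.16, GL2 -0.070. With DESeq2 BOP2 0.013. With DESeq2 size factors BOP2 0.013. With library totals BOP2 0.10. With a filter of 1 count in total BOP2 0.0065. With all 18 libraries BOP2 0.021. With 1 library left out they ranged from -0.11 to 0.36 for GI, -0.040 to 0.64 for DIN10, -0.048 to 0.056 for BOP2. Only PDF2 and GL2 among these were called as counted. Depth limited genes of few reads, such as CLV3, WUS and FT, which were not tested.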

Other observations

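Several gene families outside the pathways above had calls after FRP in tfl1, set against 16.7% of all genes called higher and 19.6% lower. Of 23 tested XTH genes, which remodel cell-wall xyloglucan, 11 fell and 2 rose, the rises being XTH18 (5.54, 6.13 and 4.52 against 14.9, 70.6 and 35.2 CPM; 2.9 ± 0.55, call lost in 4 of the 6 fits that left out 1 library) and XTH19 (3.0, 2.3 and 3.02 against 13, 22.6 and 17.5 CPM; 2.68 ± 0.23). The XTH list gave 1 to 3 rises and 9 to 11 falls with 1 library left out, 4 and 9 with the trends removed. Of 60 SAUR genes, small auxin-induced transcripts, 16 fell and 2 rose, but the balance of falls was lost with the trends removed (1 to 4 rises and 3 to 18 falls with 1 library left out, 10 and 11 with the trends removed). Heat shock proteins gave 6 rises and no falls of 17 (1 to 8 rises and 0 falls with 1 library left out, 5 and 2 with the trends removed).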
